A study of Mus musculus with 8 samples.

Results

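The genes described here are 4 connexin genes of the mouse epidermis, *Gja1*, *Gjb2*, *Gjb5* and *Gjb6*, taken by symbol from the 27179 genes of a bulk RNA-seq count table and followed across aged and adult epidermis. Epidermal cells were prepared from the torso skin of C57bl/6J mice after dispase treatment, which loosens the epidermis from the dermis, and each library came from the RNA of such a preparation. The aged group held 4 libraries from mice labelled 73 weeks old, and the adult group held 4 libraries from mice labelled 17 to 25 weeks old. The question of the comparison was how the epidermal transcriptome differs with age.

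According to the labels, every mouse of both groups received 210 µg of control IgG in 100 µl by intraperitoneal injection, 3 times per week for 12 weeks. The methods describe such injections for aged mice only, and describe plain aged and IgG-treated aged mice as separate conditions. Labels and methods place 73 weeks at the start of the treatment, so that aged mice treated for 12 weeks were older than 73 weeks at sampling. Whether the adult mice were injected could not be settled from the sources used here, and an effect of age and an effect of handling or of IgG cannot be told apart. The methods give 4 mice per condition, and the libraries of a group are therefore taken as separate mice.

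Connexins are membrane proteins of the gap junction. Connexin subunits assemble into a ring, the hemichannel, and the hemichannels of neighbouring cells dock to form a channel that passes ions, second messengers and small metabolites from cell to cell. Keratinocytes, the main cells of the epidermis, make several connexins that differ between the basal and the differentiating layers and between the surface epidermis and the hair follicle. *Gja1* encodes connexin 43, the most widespread connexin of keratinocytes and of many other cell types. *Gjb2* and *Gjb6* encode connexin 26 and connexin 30, which are found together in hair follicles, in the cochlea and in thickened or wounded epidermis, and in humans changes in either gene cause deafness or skin disease. *Gjb5*, which encodes connexin 31.1, is a connexin of stratified epithelia.

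In the RefSeq annotation of the mouse build GRCm38.p6, *Gja1* (Entrez identifier 14609) lies on the plus strand at chr10:56377300-56390419. *Gjb2* (14619) and *Gjb6* (14623) are neighbours on the minus strand of chromosome 14, at chr14:57098602-57104702 and chr14:57123301-57133611, with 18.6 kb and 0 other genes between them. *Gjb5* (14622) lies on the minus strand at chr4:127354809-127358164. In the GENCODE annotation, no other gene overlaps an exon of the 4 genes.

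The promoters of *Gja1*, *Gjb2* and *Gjb6* are shown because the levels of these 3 genes varied most between libraries (below), and because *Gjb2* and *Gjb6* are neighbours. Each line is the RefSeq sequence in GRCm38.p6 from 250 bases before the annotated start of transcription to 50 bases from it, read on the strand of the gene. They cover chr10:56377050-56377349 on the plus strand for *Gja1*, chr14:57104653-57104952 on the minus strand for *Gjb2* and chr14:57133562-57133861 on the minus strand for *Gjb6*. Capitals mark matches to motifs searched by their letters on both strands.
Gja1: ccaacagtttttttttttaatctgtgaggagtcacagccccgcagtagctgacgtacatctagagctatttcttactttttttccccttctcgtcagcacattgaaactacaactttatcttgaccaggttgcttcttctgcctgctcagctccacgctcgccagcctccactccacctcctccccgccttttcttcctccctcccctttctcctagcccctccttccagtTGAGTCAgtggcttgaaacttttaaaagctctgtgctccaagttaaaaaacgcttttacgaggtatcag
Gjb2: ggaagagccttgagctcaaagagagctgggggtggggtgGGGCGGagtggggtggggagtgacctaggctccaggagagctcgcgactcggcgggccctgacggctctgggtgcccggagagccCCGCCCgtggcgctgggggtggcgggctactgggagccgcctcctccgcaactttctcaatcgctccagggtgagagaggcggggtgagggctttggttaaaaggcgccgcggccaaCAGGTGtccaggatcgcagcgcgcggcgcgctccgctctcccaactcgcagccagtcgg
Gjb6: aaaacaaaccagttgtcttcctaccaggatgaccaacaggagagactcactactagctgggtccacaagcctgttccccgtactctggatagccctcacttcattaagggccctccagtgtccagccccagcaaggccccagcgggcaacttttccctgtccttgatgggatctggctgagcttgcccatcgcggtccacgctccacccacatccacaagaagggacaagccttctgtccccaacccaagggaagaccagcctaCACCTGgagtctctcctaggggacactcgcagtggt

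The capitals in the *Gja1* promoter are a match to the AP-1 motif TGANTCA that begins at position -19, where position 1 is the first transcribed base. This motif was found in 7.81% of the 32851 promoters of the same length in the RefSeq table, and in none of the other 3 connexin promoters. The *Gjb2* promoter held matches to the GC box GGGCGG at -211 and -126, the second on the other strand, and a match to the E-box CAGGTG at -9. GC boxes were present in 35.7% and this E-box in 20.2% of all promoters. The *Gjb6* promoter, on the same strand of the same locus, held 1 match, to the E-box CAGGTG on the other strand at 15. The *Gjb5* promoter, not printed, held a TATA box (TATAAA, 13.6% of all promoters) on the other strand at -243 and a CCAAT box (37.4%) at -70.

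Base composition separated the neighbours *Gjb2* and *Gjb6*. The *Gjb2* promoter was 70.0% G or C with 27 CpG dinucleotides, against 57.3% with 6 for *Gjb6*, 54.3% with 3 for *Gjb5* and 47.7% with 8 for *Gja1*, and the median of all promoters was 52.7%. The E-box CACGTG (7.15% of all promoters) had no match in the 4 windows. These matches describe letters and do not show that a factor binds there.

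The 8 libraries held between 75027694 and 90140102 counted reads, and 17702 genes passed the filter on low counts and were tested. Levels are given as CPM, the reads of a gene scaled to a fixed total per library, and corrected between libraries by the trimmed mean of M values (TMM). A gene was called when its Benjamini-Hochberg adjusted p in edgeR's quasi-likelihood test was under 0.1 and its fold change was over 1.25. At this threshold 20 genes, 0.113% of those tested, were called between aged and adult epidermis, 5 (0.0282%) higher and 15 (0.0847%) lower in aged. The share of reads from mitochondrial and ribosomal RNA genes, counted together, ran from 17.3% to 21.0% in aged replicates 1 and 2. It ran from 24.3% to 25.5% in aged replicates 3 and 4. Adult replicates 1 and 2 had 17.5% to 18.2%, and adult replicates 3 and 4 had 25.3% to 31.1%. The numbers 3 and 4 thus stood apart from 1 and 2 in both groups, and the results are also given within these pairs of numbers.

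None of the 4 epidermal connexins was called between aged and adult epidermis. All 4 estimates lay below 0, while 52.1% of all tested genes lay above 0. All 4 genes were above their own mean level in adult 3 and adult 4, so the 4 signs are not separate observations. At an unadjusted p of 0.05 there were 0 of 4 (background 5.99% of all genes, 2.29% higher and 3.7% lower in aged), and 0 of 4 had aged values clear of the adult values (background 3.54%, 1.71% above and 1.83% below). DESeq2 and limma-voom called 0 of 4 as well, against 190 and 17 of all 17702 genes. In bulk epidermis, fewer cells of a type and less RNA per cell cannot be told apart, and this holds for every level below.

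*Gja1*, connexin 43, had 264, 207, 192 and 214 CPM in aged replicates 1 to 4, against 171, 203, 753 and 560.0 CPM in adult replicates 1 to 4. Aged libraries lay close together, whereas adult libraries fell into a pair below most of the aged values and a pair more than 2-fold above all of them. Aged epidermis averaged 219 ± 31.6 CPM, against 422 ± 283 CPM in adult epidermis (SD, n = 4 each). The log2 fold change was -0.94 ± 0.43 (SE, 95% interval -1.92 to 0.03), with an adjusted p of 0.829 in edgeR. The difference between the means was smaller than the spread between the adult mice.

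*Gjb2*, connexin 26, had 36.8, 4.59, 13.4 and 15.5 CPM in aged replicates 1 to 4, against 6.07, 11.4 and then 86.0 and 73.8 CPM in adult replicates 1 to 4. It varied more than any of the other 3 genes, by 18.7-fold between its lowest library, aged 2, and its highest, adult 3, and the groups overlapped. Aged mice averaged 17.6 ± 13.7 CPM, against 44.3 ± 41.4 CPM in adult mice (SD, n = 4 each). The log2 fold change was -1.33 ± 0.86 (95% interval -3.26 to 0.59, edgeR adjusted p = 0.844), an interval that spans a large decrease and a moderate increase.

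*Gjb5*, connexin 31.1, had 48.5, 92.6, 57.3 and 78.6 CPM in aged replicates 1 to 4, against 50.0, 72.8, 105 and 82.9 CPM in adult replicates 1 to 4. Its values were spread alike in both groups and interleaved, with the lowest in aged 1 and adult 1. The averages were 69.3 ± 20.05 CPM across aged mice and 77.8 ± 23.0 CPM across adult mice (SD, n = 4 each). The log2 fold change was -0.17 ± 0.25 (95% interval -0.74 to 0.40, edgeR adjusted p = 0.924).

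*Gjb6*, connexin 30, was the lowest of the 4, with 7.04, 2.81, 4.56 and 3.75 CPM in aged replicates 1 to 4, against 3.01, 2.89, 6.56 and 6.75 CPM in adult replicates 1 to 4. These values rest on 255 to 608 reads per library. Aged 1, adult 3 and adult 4 were the high libraries and the groups overlapped fully. Aged libraries averaged 4.54 ± 1.81 CPM and adult libraries 4.80 ± 2.14 CPM (SD, n = 4 each), and the log2 fold change was -0.08 ± 0.37 (95% interval -0.91 to 0.75, edgeR adjusted p = 0.982).

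**Figure D1:**
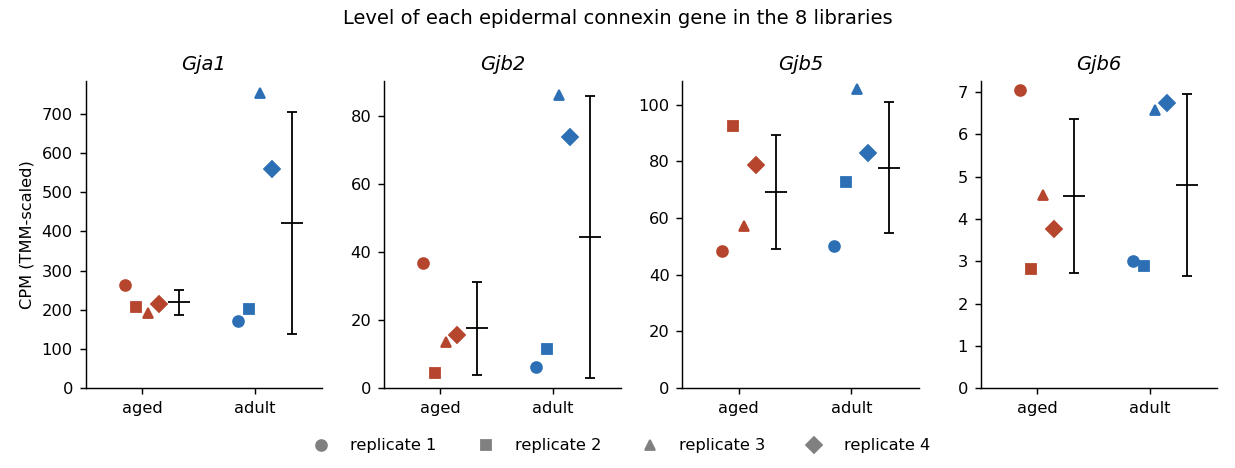
TMM-scaled CPM (y axes, from 0) of *Gja1*, *Gjb2*, *Gjb5* and *Gjb6* in 4 aged and 4 adult libraries, with symbols for the replicate number and bars for the mean and SD. *Gja1* and *Gjb2* were highest in adult 3 and adult 4 (753 and 560.0 CPM, and 86.0 and 73.8 CPM), while the remaining adult libraries lay among or below the aged ones.

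The sign of the estimated age difference depended on which replicate numbers were compared. With aged and adult replicates 3 and 4 only, *Gja1* and *Gjb2* passed the test and were lower in aged epidermis, with log2 fold changes of -1.71 ± 0.19 (edgeR adjusted p = 0.0060) and -2.48 ± 0.14 (edgeR adjusted p = 0.0026) (estimate ± SE, n = 2 each). *Gjb6* passed as well, at -0.70 ± 0.19 (edgeR adjusted p = 0.079), and *Gjb5* did not, at -0.49 ± 0.19 (edgeR adjusted p = 0.184). In this fit of 17744 genes, 2135 or 12% were called, 5.5% lower and 6.53% higher in aged. A call there is thus much more common than over all 8 libraries. The fit holds adult 3 and adult 4, already seen to be the highest libraries for *Gja1* and *Gjb2*. Its calls therefore describe these libraries and add no independent test of age.

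With aged and adult replicates 1 and 2 only, the estimates had the other sign for all 4 genes. They were 0.34 ± 0.17 for *Gja1*, 1.25 ± 0.80 for *Gjb2*, 0.21 ± 0.32 for *Gjb5* and 0.74 ± 0.41 for *Gjb6* (log2, estimate ± SE, n = 2 each), and none passed the test, in a fit in which 0 of 17921 genes (0%) were called. Only for *Gja1* did both aged libraries lie above both adult ones. For *Gjb2* and *Gjb6*, aged 1 lay above both adult libraries and aged 2, at 4.59 and 2.81 CPM, below both. For *Gjb5*, aged 2 lay above both and aged 1, at 48.5 CPM, below both. Leaving out adult replicates 3 and 4 alone gave 0.23 for *Gja1*, 1.01 for *Gjb2*, 0.17 for *Gjb5* and 0.62 for *Gjb6*, again with 0 of 4 called (background 0.0549%). Both fits leave out adult 3 and adult 4, already seen to be the highest libraries for *Gja1* and *Gjb2*. Their removal raises the estimates of these genes, so the changed signs add no independent test of age. In both of these edgeR fits, 0 of 4 genes reached an unadjusted p of 0.05, against 3.3% of all genes in the first and 3.21% in the second.

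The size of the gap between the pairs was estimated as an interaction of age and pair of numbers. It was added after the split had been seen in these libraries, so that it is a description and its test is not an independent one. In edgeR's quasi-likelihood test of it, *Gja1* had an adjusted p under 0.1 (0.038), as did 0.633% of all genes. *Gjb2* (0.228), *Gjb6* (0.359) and *Gjb5* (0.642) did not. The log2 fold change in numbers 3 and 4 minus that in numbers 1 and 2 was -2.03 ± 0.27 for *Gja1*, -3.71 ± 1.05 for *Gjb2*, -1.42 ± 0.52 for *Gjb6* and -0.67 ± 0.44 for *Gjb5* (estimate ± SE). What the numbers stand for is not given in the labels.

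**Figure D2:**
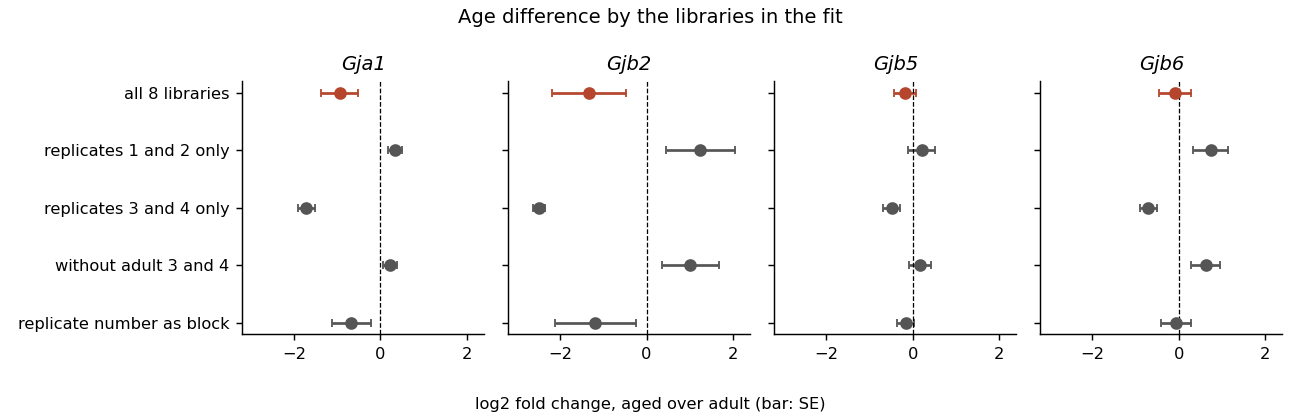
Log2 fold change of aged over adult epidermis (x axes, points, with SE bars) for each of the 4 connexin genes, by the libraries in the fit. Every estimate from replicates 1 and 2 lies above 0 and every estimate from replicates 3 and 4 below 0, from 1.25 to -2.48 for *Gjb2*.

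Sums of keratinocyte markers also varied between libraries, and not all lists in the same way. The summed level of 19 hair shaft and inner root sheath genes was 455, 42.2, 197 and 122 CPM in aged replicates 1 to 4, against 70.6, 184, 540 and 1147 CPM in adult replicates 1 to 4. Aged 1, adult 3 and adult 4, the 3 libraries highest in *Gjb2* and *Gjb6*, were also the 3 highest for these follicle genes, and aged 2 was the lowest in *Gjb2*, *Gjb6* and the follicle genes. The most abundant of them was *Tchh*, trichohyalin of the inner root sheath, at 165, 9.97, 71.2 and 46.2 CPM in aged replicates 1 to 4, against 17.3, 60.5, 214 and 447 CPM in adult replicates 1 to 4. None of the 19 genes was called (background 0.113%), and no gene of the list was at 0 in all libraries. Of the 19 estimates 18 lay below 0, while 52.1% of all tested genes lay above 0.

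A sum of 10 wound and stress genes ranged from 933 to 1346 CPM in aged and from 1196 to 2518 CPM in adult epidermis. Its keratin *Krt6a*, induced in wounded epidermis and present in the follicle, had 228, 200.2, 149 and 239 CPM in aged replicates 1 to 4, against 189, 183, 631 and 409 CPM in adult replicates 1 to 4. It was highest in adult 3 and 4. *Krt17*, another such keratin and the most abundant of the list, averaged 636 ± 118 CPM in aged and 1177 ± 377 CPM in adult epidermis (SD, n = 4 each). Its log2 fold change was -0.89 ± 0.25 and it was not called (edgeR adjusted p = 0.600). Of the 9 tested genes of the list, 4 had an estimate above 0 and 5 below, and 0 were called (background 0.113%). At an unadjusted p of 0.05 there were 2 higher (background 2.29%) and 1 lower (background 3.7%). *Krt16*, another wound keratin and chosen after its values were seen, had 133, 153, 93.9 and 159 CPM in aged replicates 1 to 4, against 108, 109.5, 72.9 and 69.5 CPM in adult replicates 1 to 4. It was lowest in adult 3 and 4, and its log2 fold change of 0.58 ± 0.21 was not called (edgeR adjusted p = 0.740).

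The basal keratin *Krt5*, which marks keratinocytes, averaged 3529 ± 735 CPM in aged libraries and 2752 ± 969.9 CPM in adult libraries (SD, n = 4 each), so that the labelled cell type was present in both groups. Basal markers were lower in replicates 3 and 4 of both groups, most of all in adult 3 and 4. The sum of 10 basal genes, led by *Krt5* and *Krt15*, was 17538.5, 19150, 14445.5 and 13341 CPM in aged replicates 1 to 4. In adult replicates 1 to 4 it was 17533, 17029, 8973 and 9146 CPM. Proliferation genes, led by *Mki67* and *Pcna*, summed to 445 to 573 CPM in aged and to 185 to 523 CPM in adult epidermis, with the lowest sum in adult 3. The sum of 12 suprabasal genes, led by *Krt10* and *Dsg1a*, ran from 7887 to 15317 CPM in aged epidermis, against 7341, 11195, 17473 and 14854 CPM in adult replicates 1 to 4, so that adult 3 lay above the aged range and adult 4 inside it. The part of follicle content, wound keratins, cell layer or the mitochondrial and ribosomal RNA share in the connexin levels was not tested.

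Markers of dermal cells, which can also express *Gja1*, were low in both groups. Fibroblast genes, led by *Fbln1* and *Col1a2*, summed to 62.7, 14.2, 19.8 and 22.9 CPM in aged replicates 1 to 4. In adult replicates 1 to 4 they summed to 22.7, 20.3, 22.6 and 53.9 CPM. Aged 1 and adult 4 thus had the highest sums and aged 2 the lowest, while adult 3 lay among the other libraries. Endothelial and pericyte genes, led by *Acta2* and *Vwf*, summed to 5.23 to 9.77 CPM in aged and 6.20 to 8.62 CPM in adult epidermis. Their highest sums were in aged 1, adult 4 and adult 3. The part of dermal cells in the connexin levels was not tested. Melanocyte genes (*Mitf*, *Tyr*) summed to 41.8 to 79.3 CPM in aged and 49.0 to 80.1 CPM in adult epidermis, and muscle and fat genes (*Acta1*, *Myh4*) stayed under 6 CPM in every library.

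Other epidermal lineages gave the following sums. Genes of the follicle stem cells and outer root sheath, led by *Krt79* and *Postn*, ran from 1079.7 to 1417 CPM in aged and from 1482 to 1830.3 CPM in adult epidermis, without overlap. Over all single genes, 1.83% had aged values all below adult. A sum weighs its most abundant genes most, and both of these genes overlapped by themselves. *Krt79* had 545, 416, 536 and 744 CPM in aged replicates 1 to 4, against 730, 778, 983 and 1295 CPM in adult replicates 1 to 4. *Postn* had 533, 412, 318 and 302 CPM, against 701, 482, 173 and 197 CPM. The gap in the sums thus does not describe every gene of the list. Of 12 genes tested 7 were lower in aged epidermis at an unadjusted p of 0.05 (background 3.7%), and 0 were called (background 0.113%). Sebocyte genes (*Scd1*, *Fasn*) ran from 863 to 1473 CPM in aged and from 1031 to 1189 CPM in adult epidermis. Langerhans and T cell genes, led by *Epcam*, which keratinocytes also express, and *Cd74*, ran from 261 to 525 CPM in aged and from 193 to 479 CPM in adult epidermis. Their part was not tested either.

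Levels of different genes were compared after division by exon length, as CPM per kilobase. *Gja1* was the most abundant of the 4 connexins, at 71.4 ± 10.3 CPM per kilobase in aged and 137 ± 92.0 in adult epidermis (SD, n = 4 each). *Gjb5* came next at 40.2 ± 11.6 CPM per kilobase in aged and 45.2 ± 13.4 in adult epidermis. *Gja1* was above *Gjb5* in each of the 8 libraries, from 67.3 against 53.8 CPM per kilobase in aged 2 to 245 against 61.3 in adult 3.

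*Gjb2* followed at 7.31 ± 5.68 CPM per kilobase in aged and 18.4 ± 17.2 in adult epidermis. In aged epidermis it did not differ beyond its spread from *Gje1*, which stood at 8.76 ± 2.53 CPM per kilobase there and at 8.93 ± 2.03 in adult epidermis. *Gjb6* came last of the 4 at 2.16 ± 0.86 CPM per kilobase in aged and 2.28 ± 1.02 in adult epidermis, below *Gjc3* at 3.90 ± 1.29 and 3.84 ± 0.87. Since adult 3 and adult 4 held *Gjb2* at 35.7 and 30.7 CPM per kilobase, against 15.3, 1.91, 5.59 and 6.44 in aged replicates 1 to 4, its place in the order differed between libraries.

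Together the 4 genes held 121 ± 12.5 CPM per kilobase in aged epidermis (SD, n = 4), against 88.7, 115, 345 and 264 in adult replicates 1 to 4. Of this sum *Gja1* took 58.9 ± 4.67% in aged and 65.1 ± 6.03% in adult epidermis (SD, n = 4 each). It was at 71.0% and 69.0% in adult 3 and adult 4, the 2 highest libraries, and at 54.1% in aged 2, the lowest.

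*Gjb5* made up 33.4 ± 9.31% of the sum in aged and 26.4 ± 9.88% in adult epidermis, *Gjb2* 5.91 ± 4.13% in aged and 7.23 ± 4.39% in adult, and *Gjb6* 1.78 ± 0.65% in aged and 1.23 ± 0.29% in adult. *Gjb2* was above 10% in aged 1, adult 3 and adult 4, and at most 5.40% in every other library. *Gjb5* was lowest in the same 3 libraries, at 21.2% in aged 1, 17.7% in adult 3 and 18.2% in adult 4. Shares of 1 sum cannot all move the same way, and they are descriptions without a test.

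**Figure D3:**
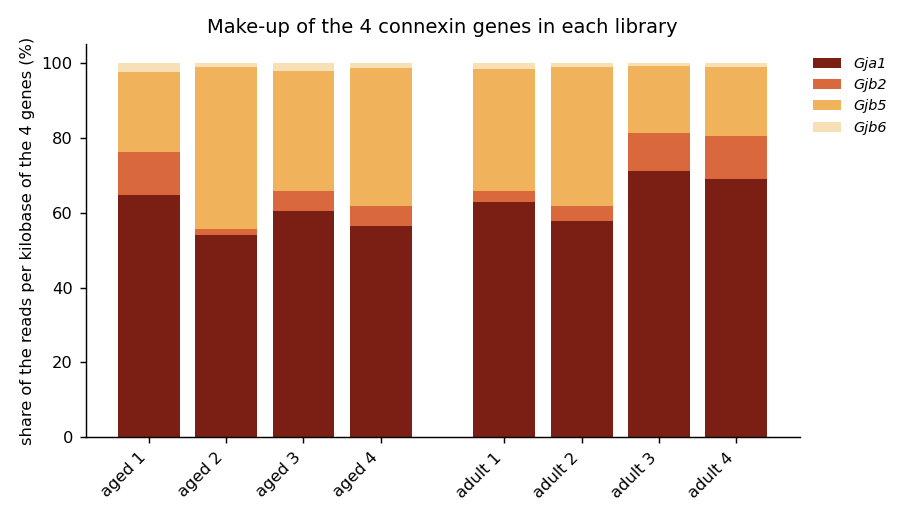
Share of the summed reads per kilobase of the 4 epidermal connexins (y axis, percent, stacked from 0) taken by each gene in the 4 aged and 4 adult libraries. *Gja1* is the largest segment in every library, from 54.1% in aged 2 to 71.0% in adult 3, and *Gjb2* is widest in aged 1 and in adult 3 and 4.

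The neighbours *Gjb2* and *Gjb6* on chromosome 14 did not keep a fixed ratio. After centring each gene on its own mean log2 CPM, the root mean square difference between them over the 8 libraries was 0.996 on the log2 scale, and the log2 ratio of *Gjb2* to *Gjb6* ran from 0.71 in aged 2 to 3.71 in adult 3 (SD 1.06 over 8 libraries). Both were high in aged 1, adult 3 and adult 4, but the range of *Gjb2* was far wider, with an SD of 1.47 on the log2 scale against 0.53 for *Gjb6*. *Gja1* lay 0.87 from *Gjb2*, 0.49 from *Gjb6* and 0.60 from *Gjb5* on the same measure. *Gjb5* lay 1.41 from *Gjb2* and 0.65 from *Gjb6*. Among genes of mean 10 CPM or more, 26 lay closer to *Gjb2* than *Gjb6* did, and 17 lay closer to it than *Gja1* did. From the side of *Gjb6*, 9067 genes lay closer than *Gjb2*. A wide own range makes every such difference larger, and all libraries share the same scaling, so these values are descriptions over 8 libraries.

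**Figure D4:**
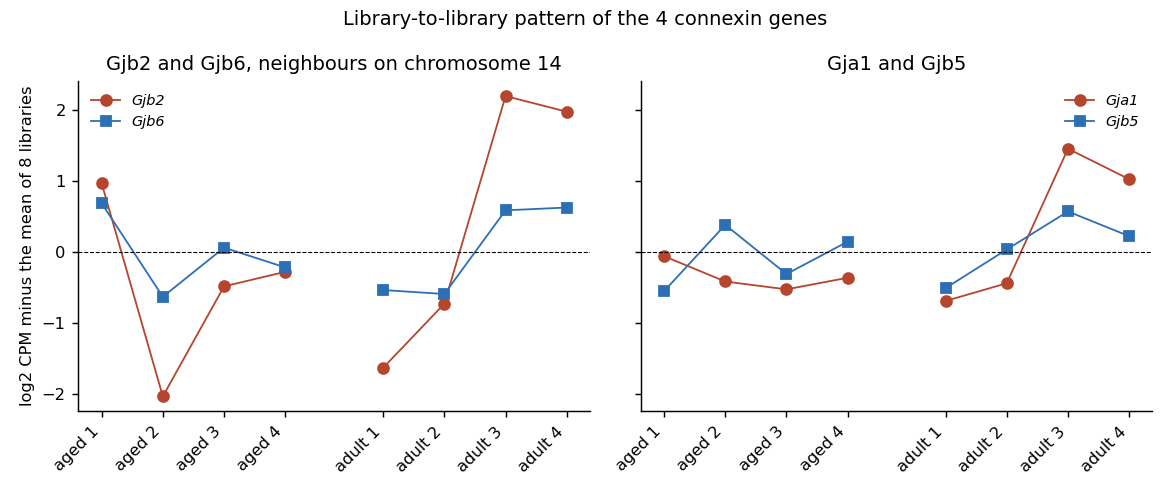
Log2 CPM minus the gene's mean over 8 libraries (y axis) for *Gjb2* and *Gjb6* (left) and for *Gja1* and *Gjb5* (right) in 4 aged and 4 adult libraries, with lines joining the points of a gene within a group. *Gjb2* ranges from -2.03 in aged 2 to 2.19 in adult 3, while *Gjb5* stays between -0.55 and 0.57.

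The 3 genes closest to each connexin on this measure were taken among the 9249 genes of mean 10 CPM or more. For *Gja1* they were the gene with Entrez identifier 100862378, which carries no symbol here, at 0.10, *Tpm1*, a tropomyosin of actin filaments, at 0.15, and *Plekhg1* at 0.21. For *Gjb2* they were *Cald1*, the actin-binding caldesmon, at 0.42, *Lamb1*, a laminin chain, at 0.46, and *Krt25*, a keratin of the inner root sheath, at 0.50. *Krt25* had 51.7, 5.52, 19.1 and 10.4 CPM in aged replicates 1 to 4, against 5.62, 19.2, 58.5 and 119.6 CPM in adult replicates 1 to 4, and thus shared with *Gjb2* the high libraries aged 1, adult 3 and adult 4.

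For *Gjb5* the closest were *Fads2b* at 0.07, *Gm94* at 0.08 and *Gm11992* at 0.09. For *Gjb6* they were *Slc35g1* at 0.26, *Samd5* at 0.28 and *Ttyh3* at 0.30. Each value is a root mean square difference in log2 CPM over the 8 libraries.

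Of 12 other connexin genes, 7 passed the filter on low counts and 0 were called by edgeR, DESeq2 or limma-voom. Over all 17702 genes these called 20, 190 and 17. Among the 7, 4 estimates lay above 0 and 3 below, with a median log2 fold change of 0.02 against 0.01 over all genes tested. An unadjusted p under 0.05 was reached by 1 of 7, *Gjc1*, connexin 45, which was lower in aged (background 3.7% of all genes for this direction).

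*Gjc1* averaged 0.25 ± 0.07 CPM over the aged and 0.43 ± 0.09 CPM over the adult libraries (SD, n = 4 each), on 14 to 48 reads per library. Its log2 fold change was -0.78 ± 0.31 and did not pass (edgeR adjusted p = 0.800).

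*Gjc3*, a connexin known from glia, had 15.6 ± 5.16 CPM in aged and 15.4 ± 3.48 CPM in adult epidermis, and *Gje1* had 13.0 ± 3.74 CPM in aged and 13.2 ± 3.01 CPM in adult epidermis (SD, n = 4 each). An exon of *Gje1* and an exon of *Gja6* overlap another gene, so that their reads may belong to either. The log2 fold changes of *Gja4*, the connexin 37 of endothelium, *Gja6*, *Gjb1* and *Gjd3* were 0.31, 0.24, 0.07 and -0.17, and the highest value of these 4 genes in any library was 1.58 CPM, for *Gja4* in aged 3. The 5 genes of the list under the filter were *Gja3*, *Gja5*, *Gja10*, *Gjd2* and *Gjd4*, of which *Gjd2* had 0 reads in every library.

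Pannexins form channels related in shape to connexin hemichannels. *Panx1*, the pannexin of keratinocytes, averaged 26.5 ± 2.98 CPM in aged and 24.5 ± 3.85 CPM in adult epidermis (SD, n = 4 each), with a log2 fold change of 0.11 ± 0.13. The log2 fold change of *Panx3* was 0.31 ± 0.50. Neither was called, and *Panx2* did not pass the filter.

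**Figure D5:**
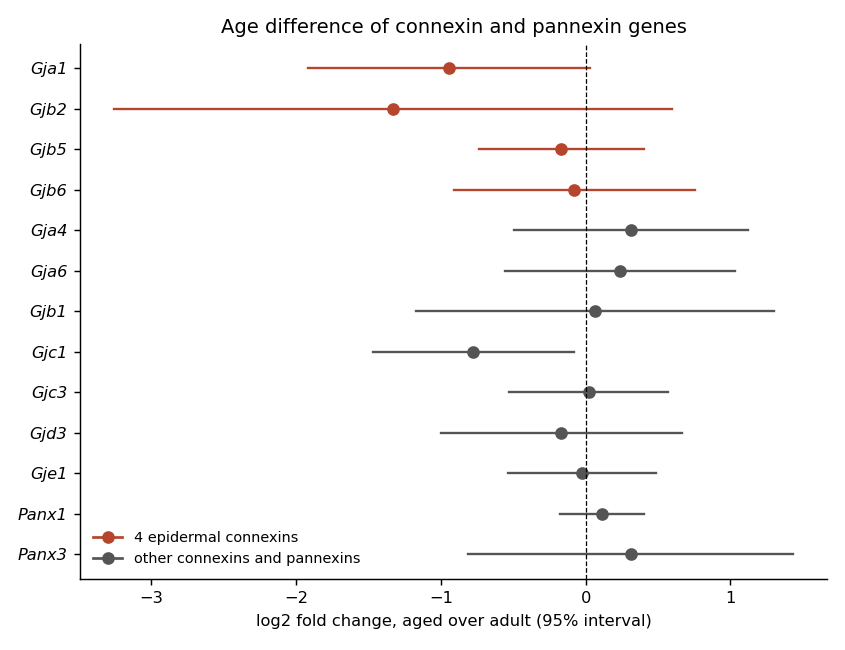
Log2 fold change of aged over adult epidermis (x axis, points, with 95% intervals) for the 4 epidermal connexins and for 7 other connexin and 2 pannexin genes that passed the filter. The interval of *Gjb2* is the widest, from -3.26 to 0.59, and that of *Gjc1* lies below 0 before adjustment for the number of genes tested.

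The gap junction partners were 19 genes for scaffolds, kinases and turnover factors known to bind or modify connexins, all of which were tested. None was called by edgeR, DESeq2 or limma-voom, which called 20, 190 and 17 of all 17702 genes. A list of this size is thus not set apart by 0 calls. Of the estimates 6 lay above 0 and 13 below, while 52.1% of all tested genes lay above 0. The median log2 fold change was -0.09. An unadjusted p under 0.05 was reached by 2 of 19, both lower in aged (background 3.7%). *Src*, the tyrosine kinase that phosphorylates connexin 43, had 39.5, 34.7, 40.5 and 39.0 CPM in aged replicates 1 to 4, against 47.1, 48.9, 43.0 and 44.3 CPM in adult replicates 1 to 4. Every aged value lay below every adult value, with a log2 fold change of -0.25 ± 0.08 that did not pass (edgeR adjusted p = 0.730).

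*Mapk3*, a kinase with sites in the tail of connexin 43, averaged 42.9 ± 4.01 CPM in aged and 56.8 ± 10.2 CPM in adult epidermis (SD, n = 4 each). Its log2 fold change was -0.41 ± 0.14 (edgeR adjusted p = 0.730), and the groups overlapped. *Smurf2*, a ubiquitin ligase, was the other partner without overlap, at -0.08 ± 0.07 (edgeR adjusted p = 0.867), which makes 2 of 19 below the adult values against a background of 1.83%. The most abundant partners were *Cdh1*, E-cadherin, *Ctnnb1*, beta-catenin, and *Nedd4*, a ubiquitin ligase that acts on connexin 43. Their log2 fold changes were -0.18 ± 0.11, -0.24 ± 0.13 and 0.11 ± 0.16.

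With replicates 3 and 4 only, 5 of the 19 partners were called, *Cav1* and *Cnst* higher in aged and *Dbn1*, *Mapk3* and *Tjp3* lower, in a fit in which 12% of all genes were called, 6.53% higher and 5.5% lower. *Cav1*, caveolin of the plasma membrane, had 246, 271, 187 and 202 CPM in aged replicates 1 to 4, against 257, 242, 74.1 and 103 CPM in adult replicates 1 to 4, low in the libraries in which *Gja1* was high. *Dbn1*, drebrin, which links connexin 43 to actin, had 1.92, 0.54, 0.59 and 0.91 CPM in aged replicates 1 to 4, against 0.77, 0.91, 2.88 and 3.07 CPM in adult replicates 1 to 4. Its high libraries were aged 1, adult 3 and adult 4, as for *Gjb2*. The scaffold *Tjp1* (ZO-1), which binds connexin 43, averaged 143 ± 13.3 CPM in aged and 154 ± 18.0 CPM in adult epidermis (SD, n = 4 each), with an edgeR adjusted p of 0.895. *Tjp1*, *Cav1*, *Dbn1* and *Smurf2* were chosen for description after their values were seen.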

How the data were processed

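The authors deposited raw read counts per gene (Entrez identifier) for 8 libraries, with no normalization. Per the methods, paired-end reads were aligned to mm10 with STAR (2.5.2b in the submitters' processing notes, which also list mm9) and counted with featureCounts, a read over several genes counting for each; its strand setting was not stated. The labels name polyA RNA, the library protocol a stranded total RNA kit with ribosomal depletion. The study used DESeq2 with an experimental batch, which the labels do not give.

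Genes were named from RefSeq (25275) or GENCODE (18), and 1886 identifiers had no symbol. The main test was edgeR 4.0.16 (R 4.3.3; filterByExpr, TMM, quasi-likelihood, age group only, Benjamini-Hochberg over 17702 genes). Alternatives were DESeq2 1.42.0, limma-voom 3.58.1, other scalings and filters, a batch of 2 levels, a replicate block, and fits without libraries. The edgeR fit was tested on simulated data. As a check for a library deposited more than once, the counts of each pair within a group were compared, and none agreed within counting noise (chi-square per degree of freedom 74.4 to 418).

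Deviations from the group means correlated at 0.16, 0.41, 0.20 and 0.21 between libraries numbered 1 to 4 in both groups, each above 0.1, which counted as pairing. This rests on the data alone, and 3 pairs of unlike number were above 0.1 as well. Aged 4 with adult 3 reached 0.30, above the values for numbers 1, 3 and 4, so a match by number was not shown. Members, lists and tests were chosen with earlier results of these data known. Named genes were the 4 members, the listed connexins and pannexins that were tested, the partners with the 3 smallest p and the 3 highest levels, the 3 genes closest to each member and the 2 most abundant genes of each marker list. *Krt85* of the hair list was not matched. Some connexin genes are not reported here.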

Additional observations from a re-analysis of the deposited data

Results flagged for a closer look

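Of 52 sets of 4 values tested for a lone value, 2 had a highest or lowest value far from the other 3, and chance gives about 1 in 20 sets. Adult 2 had the lone low *Gja4* level among adult libraries, 0.41 CPM. Aged 3 had the lone high *Gjd3* level among aged libraries, 0.29 CPM.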

How the results depend on the processing

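Each of the 4 connexins was fitted under 21 alternatives. The direction and the side of the threshold were kept in 18 of them for *Gja1*, *Gjb2* and *Gjb5* and in 12 for *Gjb6*, whose main estimate was close to 0. With replicates 3 and 4 only, *Gja1* (-1.71), *Gjb2* (-2.48) and *Gjb6* (-0.70) passed, with 5 gap junction partners, in a fit that called 12% of all genes. With replicates 1 and 2 only, the log2 fold changes turned to 0.34 for *Gja1*, 1.25 for *Gjb2*, 0.21 for *Gjb5* and 0.74 for *Gjb6*. Without adult replicates 3 and 4, the libraries highest in *Gja1* and *Gjb2*, they turned to 0.23, 1.01, 0.17 and 0.62. *Gjb6* also turned to 0.0030 with library size alone and to 0.027 with a batch of 2 levels. The estimates for *Gjb2* were -0.63 with that batch and -0.88 with limma-voom. The cause was not tested. Leaving out 1 library at a time gave -1.21 to -0.51 for *Gja1*, -1.997 to -0.79 for *Gjb2*, -0.35 to 0.015 for *Gjb5* (above 0 without adult 3) and -0.37 to 0.13 for *Gjb6* (above 0 without aged 2, aged 4, adult 3 or adult 4), and none was called.

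With the replicate number as a block, the log2 fold changes were -0.68 (edgeR adjusted p = 0.554) for *Gja1*, -1.18 (0.618) for *Gjb2*, -0.16 (0.744) for *Gjb5* and -0.06 (0.957) for *Gjb6*, so that the block changed no call among them. Over all genes the block gave 3 calls against 20 without it, the batch of 2 levels gave 57 and DESeq2 gave 190. Leaving out 1 library at a time gave 6 to 15 calls over all genes.

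Among other named genes, directions changed as follows. *Gjd3* was 0.052 with replicates 1 and 2 only, 0.24 without adult replicates 3 and 4, and -0.39 to 0.010 with 1 library left out. *Gjb1* was -0.077 with limma-voom, -0.040 with the block, -0.14 with replicates 1 and 2 only, and -0.47 to 0.36 with 1 library left out. *Gjc3* was -0.0047 with limma-voom, -0.0011 with the block, -0.0033 with the batch of 2 levels, -0.12 with replicates 1 and 2 only, and -0.22 to 0.13 with 1 library left out. *Gje1* was 0.017 with library size alone, 0.26 without adult replicates 3 and 4, and -0.23 to 0.094 with 1 library left out. *Panx1* was -0.041 and *Panx3* -0.15 without adult replicates 3 and 4, *Panx3* was -0.46 with replicates 1 and 2 only, and *Gja6* ran from -0.019 to 0.38 with 1 library left out. The lowest count of the 4 connexins in a library was 255 reads, for *Gjb6*.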
